A study of Arabidopsis thaliana with 6 samples.

Results

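Expansins are secreted proteins that loosen plant cell walls. They act best at acid pH and let the network of cellulose and xyloglucan slip without cutting it, and growing organs, root hairs and pollen tubes express different members of the family. *EXPA9* (AT5G02260) belongs to the alpha-expansins and *EXPB5* (AT3G60570) to the beta-expansins, the branch that also holds the pollen expansins of grasses. In Arabidopsis *EXPB5* acts together with the alpha-expansin *EXPA4* in pollen tube growth.

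Both genes were measured in inflorescences with young flower buds of 3 *tink/ibr5-6* plants and 3 wild-type plants, accession Landsberg *erecta* (L*er*), with 1 Affymetrix ATH1 array for each plant. The *tink/ibr5-6* line carries a point mutation of *IBR5*, the gene of a phosphatase that acts on MAP kinases, at the catalytic site. It is 1 allele from an EMS-mutagenised *klu-2* population, was freed of *klu-2* by 3 backcrosses, and shares the L*er* background with the wild type. The sources used here give neither plant ages and bud stages nor whether the plants were grown side by side. *EXPA9* and *EXPB5* are 2 of 18 measured expansin genes and of 13356 genes that the array annotation names alone for a probe set, the group of short oligonucleotides read as 1 value. They were chosen by their lower values in *tink/ibr5-6* on these same arrays, so that the difference between genotypes describes them and was not tested for them.

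The values are on a log2 scale after gcrma, a normalization that removes background predicted from the oligonucleotide sequence. A difference of 1 stands for a factor of 2. The lowest value that the table holds is 2.1, and 33.3% to 34.1% of the 22746 probe sets of each array lay under a log2 value of 3, close to that lowest value. The array medians were 6.18 to 6.20. Across probe sets, which are not independent replicates, Pearson's r between arrays was 0.996 to 0.998 within genotypes and 0.972 to 0.985 between them. The number of arrays limits the precision. The floral identity genes that would check the labelled tissue (8 listed) were not analysed here, while 3 markers of the tapetum, an anther cell layer around the microspores, were measured.

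*EXPA9* had log2 values of 2.84, 2.57 and 2.37 in *tink/ibr5-6* replicates 1 to 3, against 4.46, 4.66 and 4.69 in L*er* replicates 1 to 3. The mutant arrays lay close to the lowest signal and the wild-type arrays in the dim part of the scale, and the genotypes were separated by a gap of 1.62. The *tink/ibr5-6* mean of *EXPA9* was 2.59 ± 0.23 and the L*er* mean was 4.61 ± 0.12 (SD, n = 3 each), which gives a difference of -2.01 in log2 with a standard error of 0.15. No *tink/ibr5-6* array reached a log2 value of 3, a level that was chosen with the values known. Counted from that level, *EXPA9* was at least 3.04-fold lower in *tink/ibr5-6*. The bound uses the L*er* mean and leaves out its spread.

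*EXPB5* had log2 values of 2.65, 2.19 and 2.27 in *tink/ibr5-6* replicates 1 to 3, against 4.23, 6.48 and 4.46 in L*er* replicates 1 to 3. The genotypes did not overlap, with a gap of 1.57, but L*er* replicate 2 lay far above the other wild-type arrays. The wild-type values spanned 2.25 for *EXPB5* and 0.23 for *EXPA9*, while the *tink/ibr5-6* values spanned 0.47 for each gene. The *tink/ibr5-6* mean of *EXPB5* was 2.37 ± 0.25 and the L*er* mean was 5.06 ± 1.24 (SD, n = 3 each), and the log2 difference was -2.68 with a standard error of 0.73. The gene was at least 4.16-fold lower in *tink/ibr5-6* by its bound, which became 2.54-fold without L*er* replicate 2, where the difference was -1.97. It was 5.11-fold and 5.55-fold without L*er* replicates 3 and 1. For *EXPA9* the bound without 1 L*er* array ran from 2.96-fold to 3.20-fold.

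**Figure D1:**
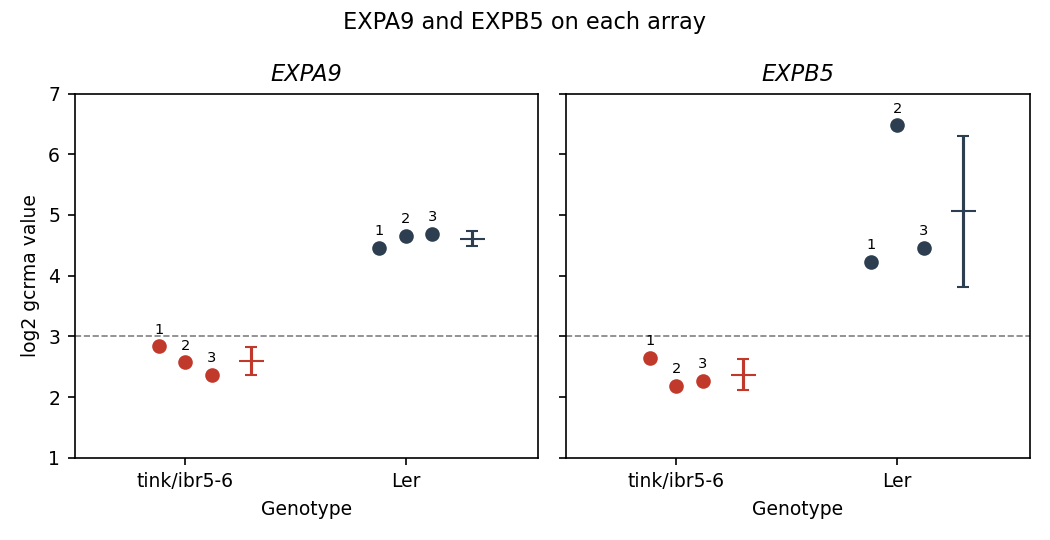
Log2 gcrma values of EXPA9 (left) and EXPB5 (right) on each array of tink/ibr5-6 and Ler, numbered by replicate, with the mean and SD of each genotype (n = 3) beside the points and a dashed line at a log2 value of 3. All tink/ibr5-6 arrays lay under the line, and for EXPB5 Ler replicate 2, at 6.48, lay above the other Ler arrays at 4.23 and 4.46.

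For both genes all *tink/ibr5-6* arrays lay below all L*er* arrays, as for 14.4% of the 22746 probe sets. Since the genes were chosen on this contrast, nothing is read from that count. Their differences were among the lowest of the table, with 1.62% of probe sets lower than *EXPA9* and 1.01% lower than *EXPB5*, which describes the choice in the same way. Within the wild type the 2 genes differed. Measured from its own L*er* mean, L*er* replicate 2 stood at 0.06 for *EXPA9* and at 1.42 for *EXPB5*, and L*er* replicates 1 and 3 stood at -0.14 and 0.08 for *EXPA9* and at -0.83 and -0.59 for *EXPB5*. Among the mutant arrays, replicate 1 was the highest array for both genes.

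Pollen genes varied between the arrays as well. Of 37 listed genes of mature pollen and the pollen tube 13 were measured, and limma, a linear model fitted to each probe set, called 8 of them lower and none higher in *tink/ibr5-6*, where a call needs an adjusted p under 0.05 (Benjamini-Hochberg over all 22746 probe sets) and an absolute log2 fold change above 1. By this rule 2.71% of all probe sets were lower and 1.53% were higher. The median log2 difference was -1.70 over the 13 genes and 0.00 over all probe sets, and the list was written with earlier results of these arrays known. *PLIM2A*, which encodes an actin-bundling protein of pollen, was lower with -5.41, and *SWEET5*, a sugar transporter gene of the pollen vegetative cell, with -4.71 (adjusted p of 0.011 and 0.0073 from limma). *ANX2* and *BUPS1*, receptor-like kinase genes that keep the pollen tube wall intact, were lower with -3.42 and -3.18 (adjusted p of 0.014 and 0.0073 from limma). *ANX2* lay under a log2 value of 3 on every *tink/ibr5-6* array, and its bound was 7.53-fold. *PLIM2A* had 2.23 and 2.33 on *tink/ibr5-6* replicates 2 and 3. The sizes for *ANX2* and *PLIM2A* are thus limited by the dim signal. The MADS box gene *AGL18* had 0.03 and the tubulin gene *TUA1* -0.54 (adjusted p of 0.96 and 0.26 from limma), and *BUPS2* and *AGL65* lay under a log2 value of 3 on every array. *HTR10* encodes a sperm cell histone, was the 1 measured of 4 listed sperm genes and had -2.95 (adjusted p = 0.062 from limma) and was called without *tink/ibr5-6* replicate 3, with -2.21. Without *tink/ibr5-6* replicate 2 the 8 calls were 4, and *ANX2* was not called without *tink/ibr5-6* replicate 2 (-3.39) or 3 (-3.28), with adjusted p from limma of 0.060 and 0.051.

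Over all 13 measured mature pollen genes, the mean distance from the L*er* mean was -1.86, -2.06 and -2.31 in *tink/ibr5-6* replicates 1 to 3, against -0.24, 0.32 and -0.09 in the L*er* replicates. L*er* replicate 2 was thus the highest wild-type array for the pollen genes as it was for *EXPB5*. It was the highest of the 3 L*er* arrays for 9 of the 10 pollen genes whose mean over the 6 arrays reached 3, beside 31.4% of the 15177 such probe sets. These genes were read on the same arrays and are not independent, so that the count is a description. For *AGL18* the margin was small (7.58 against 7.55 on L*er* replicate 1), and *SWEET5* was highest on L*er* replicate 3. For *EXPA9* L*er* replicates 2 and 3 had nearly the same value. The 3 measured of 17 tapetum genes averaged 0.21, 0.32 and 0.36 in *tink/ibr5-6* and -0.06, 0.01 and 0.05 in L*er*. None of them was called by limma, with log2 fold changes of 0.89 for *AMS*, a transcription factor gene, 0.35 for *A9* and -0.34 for *EXL5*, which encodes a pollen coat lipase (adjusted p of 0.025, 0.060 and 0.23, with 2 of 3 higher at an unadjusted p under 0.05, beside 17.9% of all probe sets). *AMS* was called without *tink/ibr5-6* replicate 1, with 1.03. In such whole inflorescences fewer pollen grains, less RNA of these genes in each grain and another mix of bud stages cannot be told apart. The paper found no gross defect of shape in mutant anthers and pollen. It also found no significant difference in transmission of the mutation through pollen of heterozygous plants. The part of the pollen content in the values of *EXPB5* and *EXPA9* was not tested.

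**Figure D2:**
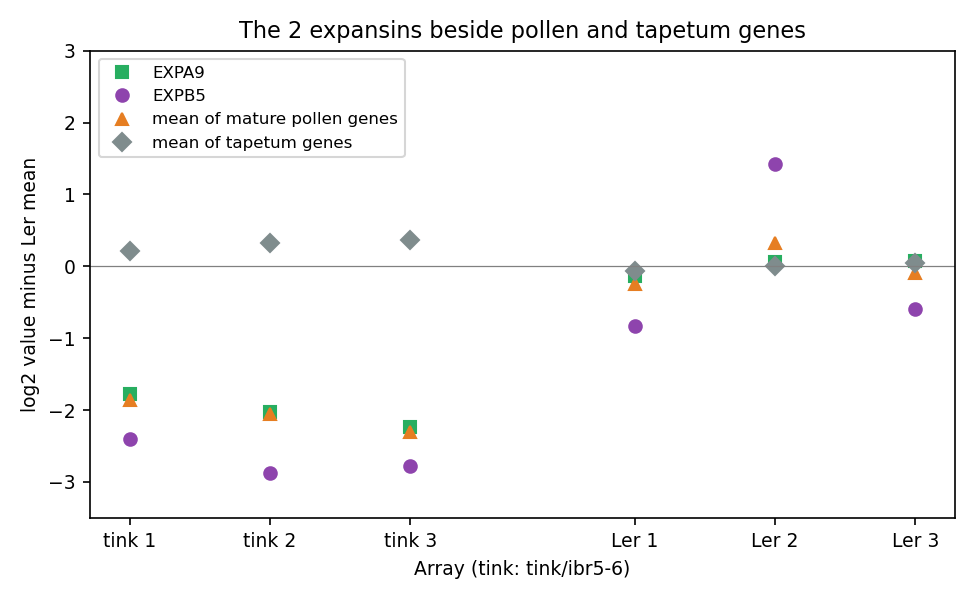
Log2 value minus the Ler mean on each array for EXPA9, EXPB5, the mean of 13 mature pollen genes and the mean of 3 tapetum genes, with the 3 tink/ibr5-6 arrays on the left and the 3 Ler arrays on the right. EXPB5 (1.42) and the pollen mean (0.32) were both highest on Ler replicate 2, where EXPA9 stood at 0.06.

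Other expansins were called in both directions. Of 36 expansin and expansin-like genes of Arabidopsis 18 were measured, 4 share a probe set with another expansin and 14 are not named by the annotation used here. Among the 16 measured besides *EXPA9* and *EXPB5*, 2 were called lower and 1 higher by limma, beside 2.71% and 1.53% of all probe sets. The median log2 difference of the 16 was 0.00, and 8 of them lay under a log2 value of 3 on every array. By log2 difference *EXPB5* was the second lowest and *EXPA9* the third lowest of the 18, after *EXPA8*.

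*EXPA8*, an alpha-expansin gene, had log2 values of 7.67, 7.15 and 7.33 in *tink/ibr5-6* and 9.69, 10.15 and 10.37 in L*er*. The arrays of the genotypes did not overlap, and all lay far above the lowest signal. Limma gave a difference of -2.69 in log2, a 6.45-fold decrease, with a standard error of 0.24 and an adjusted p of 0.0076. *EXPA8* stayed called when any 1 array was left out, with -2.88 to -2.54. *EXPB3*, among the 3 other measured beta-expansins the only one above a log2 value of 3, had 7.88, 7.74 and 7.86 in *tink/ibr5-6* and 9.03, 9.14 and 9.59 in L*er*. Its wild-type order differed from that of *EXPB5*, with L*er* replicate 3 and not replicate 2 the highest. Its log2 difference was -1.43 with a standard error of 0.17 (limma, adjusted p = 0.013), and *EXPB3* was not called without *tink/ibr5-6* replicate 1 (-1.46) or replicate 2 (-1.39), with an adjusted p of 0.052 and 0.056.

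*EXLA1*, an expansin-like gene of a branch whose proteins have no known wall-loosening activity, was higher in the mutant. It had log2 values of 10.93, 10.86 and 10.29 in *tink/ibr5-6* and 8.88, 9.50 and 8.66 in L*er*, without overlap. The difference was 1.68 in log2 with a standard error of 0.31 (limma, adjusted p = 0.033), but among the fits that leave out 1 array *EXLA1* was called only without L*er* replicate 2, and the others gave 1.50 to 1.88 with adjusted p of 0.055 to 0.11. Its relative *EXLA2* had 5.87, 5.11 and 4.74 in *tink/ibr5-6* and 5.07, 5.23 and 4.59 in L*er*. Here the genotypes overlapped, and limma called no difference (0.28 with a standard error of 0.37, adjusted p = 0.74).

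*EXPA4*, which acts with *EXPB5* in pollen tubes and is also expressed elsewhere in the plant, had log2 values of 8.71, 8.73 and 8.76 in *tink/ibr5-6* and 8.63, 8.80 and 9.18 in L*er*. The genotypes overlapped, and the log2 difference of -0.14 had a standard error of 0.16 (limma, adjusted p = 0.68). Among the L*er* arrays replicate 3 was the highest for *EXPA4* and replicate 2 for *EXPB5*. *EXPA15* had 10.06, 9.92 and 10.11 in *tink/ibr5-6* and 9.74, 9.72 and 10.22 in L*er*, and its log2 difference of 0.13 was not called either (limma, adjusted p = 0.72). *EXPA20* stayed within 5.47 to 5.50 on all arrays. *EXPA16* reached a log2 value of 3 only in L*er*, on replicate 3 with 3.37, and differed by -0.19 in log2 (limma, adjusted p = 0.49).

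The other 8 lay under a log2 value of 3 on every array. They were *EXPA7* and *EXPA18*, which act in root hairs, the alpha-expansins *EXPA21* and *EXPA24*, the beta-expansins *EXPB1* and *EXPB2*, and *EXLA3* and *EXLB1*. *EXPA24* had 2.1 on each *tink/ibr5-6* array and up to 2.32 in L*er*, and the others differed less. The 2 probe sets shared by *EXPA22* with *EXPA26* and by *EXPA23* with *EXPA25* had 2.1 on every array. For these genes no difference could be seen at this signal, in either direction.

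**Figure D3:**
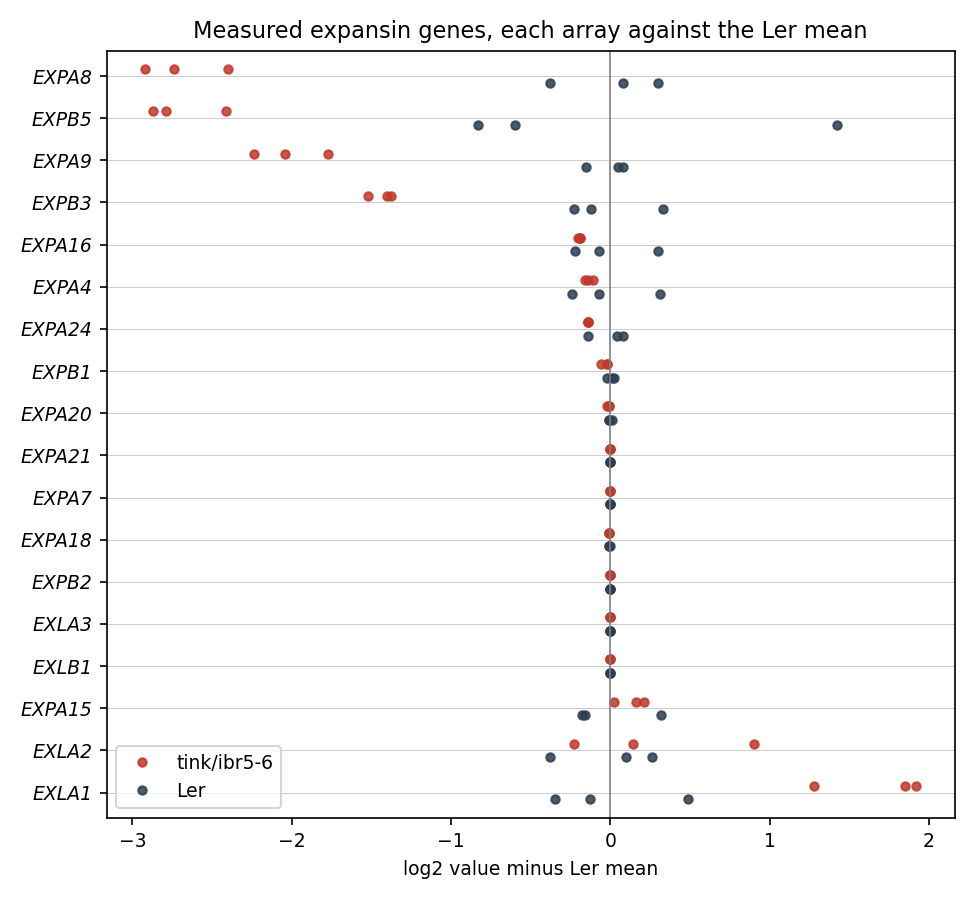
Log2 value minus the Ler mean for the 18 measured expansin genes, ordered by the log2 difference, with the 3 tink/ibr5-6 arrays drawn above the 3 Ler arrays of each gene. EXPA8, EXPB5, EXPA9 and EXPB3 lay below 0 in tink/ibr5-6 and EXLA1 above it, and the other genes had differences of -0.19 to 0.28.

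Expansins work beside enzymes that remodel xyloglucan, the XTH family, which cut xyloglucan chains and join them again. Of 33 listed *XTH* genes 10 were measured, 6 of them under a log2 value of 3 on every array. Limma called 2 higher and none lower in *tink/ibr5-6*, beside 1.53% and 2.71% of all probe sets (at an unadjusted p under 0.05, 3 were higher and none lower, beside 17.9% and 11.9%). *XTH16* had log2 values of 10.42, 10.44 and 10.14 in *tink/ibr5-6* and 8.93, 9.03 and 8.64 in L*er*, which makes a difference of 1.47 in log2 with a standard error of 0.14 (limma, adjusted p = 0.0092). *XTH32* had 9.57, 9.26 and 9.39 in *tink/ibr5-6* and 8.03, 8.37 and 8.34 in L*er*, higher by 1.16 in log2 with a standard error of 0.13 (limma, adjusted p = 0.012). Neither overlapped between genotypes, and over the whole array 4848 of 22746 probe sets had all *tink/ibr5-6* arrays above all L*er* arrays. Both *XTH16* and *XTH32* stayed called when any 1 array was left out. *XTH27* was above L*er* on every *tink/ibr5-6* array too, but its log2 difference of 0.68 (limma, adjusted p = 0.041) was under the limit for a call. *XTH33* had 0.06 (adjusted p = 0.89 from limma). The 11 plasma membrane proton pumps, which acidify the wall, and the 10 cellulose synthases of the lists were not analysed here.

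**Figure D4:**
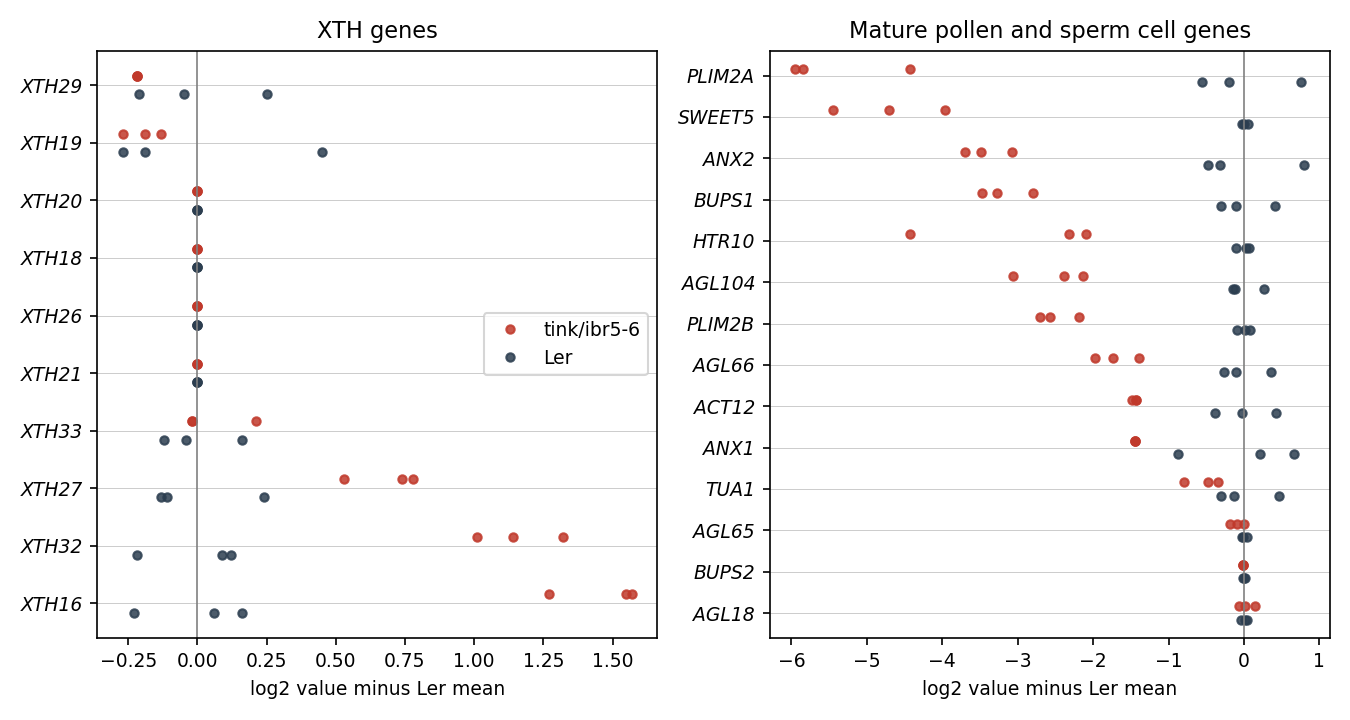
Log2 value minus the Ler mean for the 10 measured XTH genes (left) and the 14 measured mature pollen and sperm cell genes (right), with the 3 tink/ibr5-6 arrays above the 3 Ler arrays of each gene and separate axes. XTH16, XTH32 and XTH27 lay above 0 in tink/ibr5-6 (1.47, 1.16 and 0.68), while the called pollen genes lay below it.

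The genes most like each expansin were taken by the root mean square over the 6 arrays of the difference between profiles, each measured from its own L*er* mean. For *EXPA9* they were AT2G46140 (0.058), named *LEA27* among its synonyms, AT5G49900 (0.077), *GH9A3* (0.117), AT2G27740 (0.131) and AT3G62550 (0.149). The median over all genes was 1.43. *GH9A3* belongs to the *KORRIGAN* family of membrane-anchored glucanases and had 3.86, 3.91 and 3.54 in *tink/ibr5-6* and 5.62, 5.83 and 5.69 in L*er*. AT2G46140 had 7.36, 7.14 and 6.87 in *tink/ibr5-6* and 8.89, 9.25 and 9.15 in L*er*, so that its differences matched those of *EXPA9* at a higher part of the scale.

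For *EXPB5* the genes most like it were the beta-glucosidase gene *BGLU36* (0.352), AT3G60780 (0.360), AT1G25240 (0.361), AT5G12000 (0.379) and AT1G49290 (0.393), against a median over all genes of 2.03. *BGLU36* had 2.99, 2.42 and 2.27 in *tink/ibr5-6* and 4.87, 6.01 and 4.42 in L*er*. AT1G49290 had 2.85, 2.88 and 2.85 in *tink/ibr5-6* and 3.91, 6.60 and 5.09 in L*er*. All 5 lay under a log2 value of 3 on every *tink/ibr5-6* array and were highest on L*er* replicate 2, as *EXPB5* was, which the choice by likeness favours. By this measure *EXPA9* and *EXPB5* stood 0.837 apart, which placed *EXPB5* at 376 of 13355 genes in likeness to *EXPA9* and *EXPA9* at 104 in likeness to *EXPB5*. The 6 arrays are only 2 groups of 3, so that genes with a like difference between genotypes, or a like value on 1 array that stands apart, come out as alike.

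**Figure D5:**
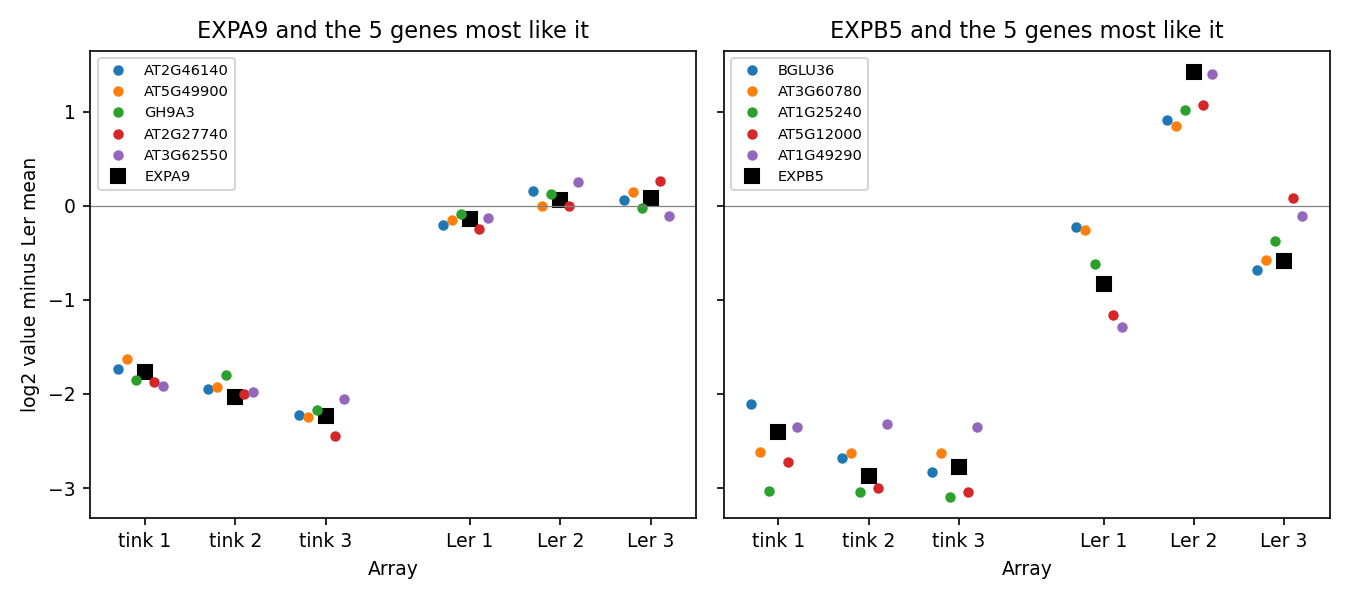
Log2 value minus the gene's own Ler mean on each array for EXPA9 (left, black squares) and EXPB5 (right, black squares) with the 5 genes most like each (coloured points), with tink/ibr5-6 (tink) arrays left of Ler arrays. The EXPA9 panel shows little spread among Ler arrays, while all genes of the EXPB5 panel were highest on Ler replicate 2.

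The genes beside the 2 expansins on the chromosome are given as values. Of the nearest measured genes on each side of *EXPA9*, AT5G02240 differed by -0.11 in log2 and AT5G02280 by 0.02 (limma, adjusted p of 0.27 and 0.44). AT5G02230 was called higher, with 11.61, 11.53 and 11.18 in *tink/ibr5-6* and 10.01, 10.03 and 10.17 in L*er*, and a log2 difference of 1.37 (limma, adjusted p = 0.0091). AT5G02350 lay at 2.1 on all arrays. Around *EXPB5*, AT3G60560 lay at 2.1 on all arrays, and AT3G60580 had 0.29 (adjusted p = 0.39 from limma). AT3G60590 had 0.33 and AT3G60540 -0.72 (adjusted p of 0.14 and 0.013 from limma), the last without overlap between genotypes but under the limit for a call.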

How the data were processed

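Each ATH1 array holds the RNA of 1 plant's inflorescences. Values deposited by the authors are log2 signals from gcrma, whose version the sources used here do not state, and they were taken as they stand. The table holds 22810 probe sets, of which 64 array controls took no part. The platform annotation names 1 gene for 13513, several for 503 and does not list 8730, and for the 146 genes with several probe sets the one with the highest mean was taken. Loci came from the RefSeq table, by gene ID, for 13286 of 13356 genes.

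The test between genotypes was limma 3.58.1 (R 4.3.3) over all 22746 probe sets, without a filter on low values. The prior for the spread had 0.401 degrees of freedom. Scripts were tested on simulated data. The sources used here do not state whether the plants were grown or processed together, so that p-values reflect only how these plants varied.

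The members and lists were chosen with earlier results of these data known. Named are all measured expansins, from each other list up to 4 called and 2 uncalled genes (all where 4 or fewer were measured), the 5 genes most like each member and its 2 nearest measured genes on each side. The dim pollen genes *BUPS2* and *AGL65* and the shared probe sets were named after their values were seen. Alternatives were quantile normalization, centring on medians, a filter on dim probe sets, a trend and robust prior, the replicate number as a block, no limit on the fold change, a floor at 3 and leaving out each array. Python 3.11.15, numpy 2.4.6, pandas 2.3.3 and matplotlib 3.10.9 were used for the rest.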

Additional observations from a re-analysis of the deposited data

How the results depend on the processing

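The log2 differences of *EXPA9* and *EXPB5* were negative in each alternative run for them, which were quantile normalization, centring, the replicate block, the floor and leaving out 1 array. The last gave -2.13 to -1.90 for *EXPA9* and -3.10 to -1.97 for *EXPB5*, whose smallest difference was that without L*er* replicate 2. Both genes were chosen for lower values in *tink/ibr5-6* and did not overlap between genotypes. Leaving out 1 array or setting the floor therefore could not turn the sign. The replicate block leaves the difference of the means unchanged in this balanced design. The signs thus describe the choice and are no test of it. With values under 3 set to 3 the difference of *EXPA9* was -1.61, since its *tink/ibr5-6* values all lie under that floor, and that of *EXPB5* was -2.06. Leaving out 1 array gave 518 to 746 called probe sets, against 966 with all arrays, 1 to 3 other expansins, against 3, 2 *XTH* genes, as with all arrays, and 4 to 8 of the 14 pollen and sperm cell genes, against 8. With the adjusted p alone 3697 probe sets were called, 1513 lower and 2184 higher, against 617 lower and 349 higher.

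Whether the replicate numbers pair the plants is not stated in the sources used here. Deviations of arrays with the same number from their genotype means correlated with -0.25, 0.01 and -0.04 across probe sets. Of 6 arrays, 1 deviated most like the array of the other genotype with its own number. With 3 arrays for each genotype these values cannot decide whether arrays share a growth or processing batch. With the replicate block limma called 133 probe sets (65 lower and 68 higher), none of the 16 other expansins (0, with 3 at an unadjusted p under 0.05, beside 24.7% of all probe sets), 1 *XTH* gene, *XTH16*, and none of the pollen and sperm cell genes (0, with 9 at an unadjusted p under 0.05), with fewer residual degrees of freedom. Quantile normalization, centring, the filter at a mean log2 value of 4 and the trend and robust prior kept each of the 4 counts within 1.5 times of that from the values as deposited. The size of the differences is limited by the dim signal of both genes in *tink/ibr5-6* and, for *EXPB5*, by L*er* replicate 2.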
